A study of Mus musculus with 6 samples.

Results

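The 10 genes described here encode matrix proteoglycans and the making and binding of hyaluronan: decorin (Dcn), biglycan (Bgn), asporin (Aspn), lumican (Lum), fibromodulin (Fmod), Prelp, osteoglycin (Ogn), versican (Vcan), hyaluronan synthase 2 (Has2) and the hyaluronan receptor Cd44. They were chosen by symbol, and all 10 were found among the 17512 genes of the count table. RNA was sequenced from 6 cultured lines of pMEFs, primary fibroblasts taken from mid-gestation mouse embryos of the C57bl6 background without their internal organs. HAT1 WT lines 36, 47 and 78 carried an intact Hat1 gene, and HAT1 KO lines 33, 41 and 72 came from embryos in which it was knocked out. HAT1 is an acetyltransferase of newly synthesized histone H4. All lines were grown in DMEM with serum and antibiotics, and no line received another agent. The sources used here do not say whether each line came from its own embryo, so the p-values measure the spread between these lines.

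Small leucine-rich proteoglycans are secreted proteins that bind collagen fibrils and set their diameter and spacing. Decorin and biglycan carry chondroitin or dermatan sulfate chains, whereas lumican and fibromodulin carry keratan sulfate. Versican is a far larger chondroitin sulfate proteoglycan that binds hyaluronan, the long unsulfated sugar chain that HAS2 extrudes through the plasma membrane and that CD44 binds at the cell surface.

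Total counts lay between 67720628 and 98786746 per library. The lowest count of any of the 10 genes in any line was 1614. Its counting error was 2.49% if every count is a separate read. Levels are in CPM, the usual depth-scaled counts, after TMM scaling of the library sizes, and are listed in the order WT lines 36, 47 and 78, then KO lines 33, 41 and 72. Hat1 was at 17.4, 23.0 and 20.1 CPM in WT and at 10.2, 10.0 and 10.3 CPM in KO (log2 fold change -0.99 ± 0.12 SE, edgeR adjusted p = 0.0376), so Hat1 reads remained in the KO libraries. KO line 72 stood apart, with a mean correlation of 0.958 with the other lines across genes, against 0.974 to 0.979 for the other 5. Counts of 4 Y-linked genes were 13788 and 12841 in WT lines 36 and 47, 231 in WT line 78 and 4 to 8 in the KO lines. Those of the X-linked Xist were 94, 1179 and 29520 in WT lines 36, 47 and 78 and 11233 to 13722 in KO. Sex chromosomes and genotype thus cannot be told apart except through WT line 78, which itself held some Y-linked counts. Whether WT lines 47 and 78 mix cells of both sexes was not tested. The libraries came from 3 lanes, with lane 6 holding WT line 47 and KO lines 33 and 72, lane 7 holding WT line 78 and KO line 41, and lane 8 holding WT line 36 alone. The summed level of 8 fibroblast markers was 70830 to 76280 CPM in WT and 57530 to 89400 CPM in KO. That of 6 epithelial markers was 1.76 to 2.49 CPM in WT and 1.10 to 2.07 CPM in KO. Of these 6, only Epcam and Krt5 stayed under 0.1 CPM in every line. All 12 macrophage and blood markers had a lower mean in KO, 11 of them with an unadjusted p under 0.05, and their sum was 2674 to 3076 CPM in WT and 1412 to 1793 CPM in KO. All 10 proliferation markers had a higher mean in KO, 7 with an unadjusted p under 0.05, and their sum was 463 to 693 CPM in WT and 652 to 952 CPM in KO. Over all genes tested, 8.77% were lower and 5.88% higher in KO at an unadjusted p under 0.05 in edgeR. In such bulk samples, fewer cells of a type and less RNA per cell cannot be told apart.

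The sequence just before the start site is shown for 4 of the genes, Bgn, Fmod, Aspn and Ogn. Bgn had the highest and steadiest level, and Fmod was higher in KO at an unadjusted p. Aspn and Ogn belong to 1 gene cluster, with Omd between them, and their fold changes had opposite signs. Each run holds the 250 bases before the RefSeq start site on GRCm38.p6, written 5′ to 3′ along the gene, all on the plus strand. They lie at chrX:73483351-73483600 for Bgn, chr1:134037004-134037253 for Fmod, chr13:49544193-49544442 for Aspn and chr13:49607765-49608014 for Ogn. Capitals mark every match, on either strand, to a TATA motif (TATAAA), a GC box (GGGCGG), an AP-1 motif (TGANTCA) or a CCAAT box.
Bgn: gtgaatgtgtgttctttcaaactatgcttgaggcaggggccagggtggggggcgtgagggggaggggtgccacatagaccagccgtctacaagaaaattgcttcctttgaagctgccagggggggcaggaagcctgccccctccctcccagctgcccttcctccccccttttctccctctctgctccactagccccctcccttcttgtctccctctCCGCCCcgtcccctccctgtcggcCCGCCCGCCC
Fmod: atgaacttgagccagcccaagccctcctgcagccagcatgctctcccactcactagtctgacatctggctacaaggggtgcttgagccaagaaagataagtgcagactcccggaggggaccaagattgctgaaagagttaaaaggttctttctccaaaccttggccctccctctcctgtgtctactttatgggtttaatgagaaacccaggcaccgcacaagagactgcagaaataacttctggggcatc
Aspn: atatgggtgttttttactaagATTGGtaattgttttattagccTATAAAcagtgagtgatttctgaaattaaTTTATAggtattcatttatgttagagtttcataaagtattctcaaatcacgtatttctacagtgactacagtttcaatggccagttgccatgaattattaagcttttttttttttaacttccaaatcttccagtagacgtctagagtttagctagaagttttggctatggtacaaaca
Ogn: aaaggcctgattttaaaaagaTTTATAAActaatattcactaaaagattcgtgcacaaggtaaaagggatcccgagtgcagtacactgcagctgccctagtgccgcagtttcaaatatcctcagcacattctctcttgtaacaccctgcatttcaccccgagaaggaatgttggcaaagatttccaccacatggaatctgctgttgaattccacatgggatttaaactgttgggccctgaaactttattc

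The Bgn window was the richest of the 4 in G and C, at 64.4%, and held 3 matches to GGGCGG, of which the pair nearest the gene overlap. The Aspn window held 30.0% G and C, with 2 matches to TATAAA and 1 to CCAAT. The first bases of its TATAAA matches lay at -207 and -178 from the start site. The Ogn window, at 42.0%, held 2 overlapping matches to TATAAA, with first bases at -229 and -227. The Fmod window, at 51.2%, held none of the 4 motifs. Among 32851 RefSeq promoter windows of this length, TATAAA occurred in 12.4%, GGGCGG in 32.7%, TGANTCA in 6.75% and CCAAT in 33.8%. Sequences were found for 7 of the 10 genes, the remaining 3 being Dcn, Lum and Has2.

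Compared per kilobase of exon, with all annotated exons of a gene merged, biglycan was by far the most abundant of the 10 messages and Has2 the least. The order in between depends on that length. It was 5838 bases for Dcn and 2448 for Lum, whose WT means were 362 and 117 CPM before division. In WT lines, Bgn was at 537 ± 31.0 CPM per kilobase (SD, n = 3), followed by Aspn at 130 ± 21.3, Cd44 at 97.2 ± 10.7 and Dcn at 61.9 ± 43.2. Below them came Fmod at 49.5 ± 8.75, Lum at 47.9 ± 22.3, Ogn at 39.6 ± 3.80, Vcan at 30.3 ± 11.4 and Prelp at 23.3 ± 9.12 CPM per kilobase, with Has2 last at 5.05 ± 0.21. The line ranges of neighbours in this order overlapped from Cd44 down to Prelp, so the order of neighbours among those 7 genes was not resolved. Bgn, Aspn and Cd44 were separated from each other in WT, and Has2 lay below Prelp in every line.

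In KO lines, Bgn again led, at 564 ± 41.5 CPM per kilobase (SD, n = 3), and Aspn followed at 110 ± 26.4. Cd44 at 88.5 ± 12.2, Fmod at 72.1 ± 17.3, Ogn at 53.6 ± 21.2, Dcn at 49.6 ± 27.7 and Lum at 46.2 ± 14.0 overlapped their neighbours in the order. Prelp, at 27.8 ± 8.17 CPM per kilobase, lay below Lum in all 3 KO lines, Vcan stood at 21.9 ± 6.69, and Has2 was last at 9.56 ± 4.55. Biglycan made up 53.6% to 65.7% of the summed per-kilobase level of the 7 small leucine-rich proteoglycans over the 6 lines.

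**Figure D1:**
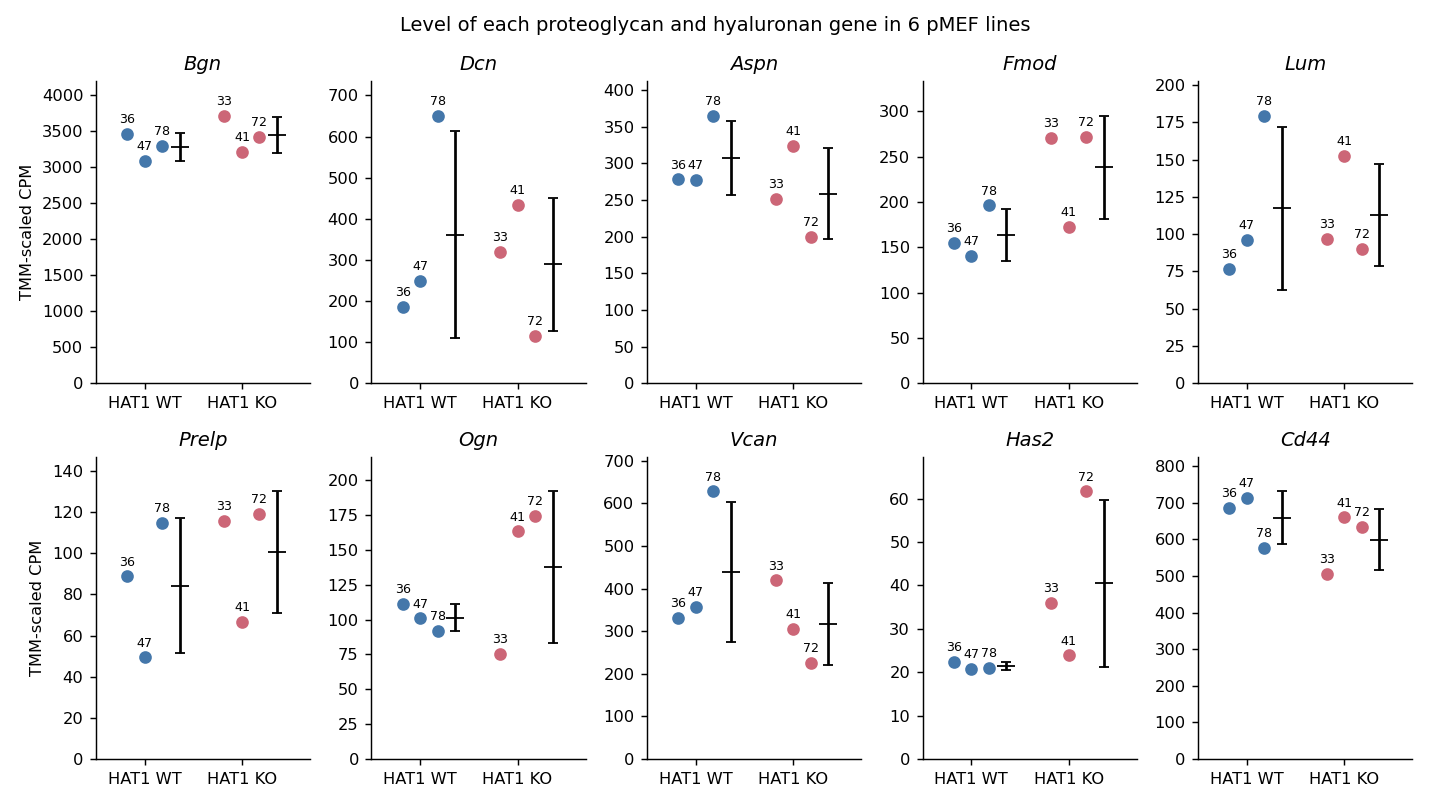
Level of each of the 10 genes in TMM-scaled CPM (vertical axes, each starting at 0) in the 3 HAT1 WT and 3 HAT1 KO lines, with points for lines and the bar and whiskers for mean and SD. Only the Has2 panel shows KO lines (23.9 to 61.7 CPM) wholly above WT lines (20.8 to 22.4 CPM).

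The question put to these genes was whether their RNA differed between HAT1 WT and HAT1 KO fibroblasts. None of the 10 passed an edgeR adjusted p of 0.05, against 0.528% of the 14773 genes tested, all of those lower in KO. At an unadjusted p under 0.05, 2 of the 10 were called, Has2 and Fmod, both higher in KO, beside 5.88% of all genes tested that were called higher and 14.6% in either direction. With a change of at least 1.5-fold required as well, Has2 alone was left, beside 6.11% of all genes called in either direction. A positive log2 fold change was found for 5 genes and a negative one for 5, and the median of 0.0098 lay beside 0.0085 for all genes tested.

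Decorin, whose core protein binds collagen and transforming growth factor beta, varied more between lines than any other of the 10 genes. Dcn (chr10:97479609-97518143, GRCm38) was at 186, 249 and 650.4 CPM in WT and at 319.6, 434 and 115 CPM in KO. The highest value was in WT line 78 and the lowest in KO line 72, a 5.65-fold range, and the genotypes overlapped. Its log2 fold change was -0.32 ± 0.62 (SE, edgeR adjusted p = 0.853). It turned positive, to 0.42 without WT line 78 and 0.07 without KO line 72, so its sign rested on these 2 lines.

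Biglycan, the closest relative of decorin, was nearly level over the 6 lines. Bgn (chrX:73483602-73495933) was at 3457, 3079 and 3284 CPM in WT and at 3707, 3203 and 3410.2 CPM in KO. The highest line exceeded the lowest by 1.20-fold, the genotypes overlapped, and the log2 fold change was 0.07 ± 0.10 (SE, edgeR adjusted p = 0.790). The ratio of Dcn to Bgn, per kilobase, ran from 0.0352 in KO line 72 to 0.207 in WT line 78.

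Asporin, the third class I member, has a stretch of aspartates in place of the chain attachment sites. Aspn (chr13:49544443-49567565) was at 278, 278 and 365 CPM in WT and at 252, 324 and 199.9 CPM in KO. The highest value again lay in WT line 78 and the lowest in KO line 72, and the genotypes overlapped (log2 fold change -0.25 ± 0.20 SE, edgeR adjusted p = 0.616). That value was -0.08 without KO line 72, -0.10 without WT line 78 and -0.44 without KO line 41. An exon of Aspn overlaps Cenpp on the opposite strand, to which only 152 to 224 counts per library were assigned.

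Lumican and fibromodulin, class II members that bind the same site on collagen, had unlike profiles over the lines. Lum (chr10:97565128-97572703) was at 76.5, 95.9 and 179 CPM in WT and at 96.6, 152 and 90.3 CPM in KO. Its genotypes overlapped, WT line 78 was highest, and the log2 fold change of -0.05 ± 0.36 (SE, edgeR adjusted p = 0.961) turned positive, to 0.40, without that line. It was also positive, at 0.05 and 0.10, without KO line 33 and without KO line 72.

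Fmod (chr1:134037254-134048277) was at 154, 141 and 196 CPM in WT and at 271, 172 and 272 CPM in KO. KO lines 33 and 72 lay above every WT line, whereas KO line 41 lay below WT line 78. The log2 fold change was 0.54 ± 0.21 (SE), a 1.45-fold higher level, with an unadjusted p of 0.0420 and an adjusted p of 0.323 in edgeR. Within lane 6 the KO mean exceeded WT by 0.95 on the log2 scale, while in lane 7 it was -0.19, with 1 line of each genotype. In the fit with lane in the model, WT line 36, alone in its lane, adds nothing to the genotype difference. That fit lost the call, giving 0.45 at an unadjusted p of 0.215 in edgeR. It was also lost against WT line 78 alone, where the log2 fold change was 0.29, at an unadjusted p of 0.409 in edgeR. The unadjusted p rose to between 0.0969 and 0.123 in edgeR without WT line 36 or 47 or KO line 33 or 72. The ratio of Lum to Fmod per kilobase was 0.482 and 0.449 in KO lines 33 and 72 and 0.669 to 1.24 in the other 4 lines.

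Prelp, a class II protein with a basic end that binds heparan sulfate, is a neighbour of Fmod on chromosome 1 (chr1:133910304-133921414, minus strand). Its levels were 88.8, 49.3 and 115 CPM in WT and 116, 66.5 and 119 CPM in KO. WT line 47 and KO line 41 were low and the other 4 lines high, so the genotypes overlapped (log2 fold change 0.25 ± 0.35 SE, edgeR adjusted p = 0.787). The difference was 1.25 within lane 6 and -0.79 within lane 7, on the log2 scale, and, over all lines, -0.01 without WT line 47 and 0.55 without WT line 78. An antisense gene, Gm15851, overlaps an exon of Prelp and is not analysed here.

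Osteoglycin, also called mimecan, is the class III member. Ogn (chr13:49608046-49624501) was at 112, 100.9 and 92.1 CPM in WT and at 75.2, 163 and 174 CPM in KO. The KO lines held both the lowest and the highest values, and the log2 fold change was 0.44 ± 0.31 (SE, edgeR adjusted p = 0.561). Without KO line 33 it was 0.73 ± 0.10 (SE), with an unadjusted p of 0.000604 and an adjusted p of 0.107 in edgeR. It was 0.24 without KO line 72 and 0.30 without KO line 41, with unadjusted p-values of 0.459 and 0.420 in edgeR, so its size rested on which KO lines were kept.

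Versican, which binds hyaluronan at 1 end of its core protein, was highest in WT line 78 as well. Vcan (chr13:89655312-89742509, minus strand) was at 330.4, 357 and 628 CPM in WT and at 419, 306 and 226 CPM in KO. The 2 lowest values were in KO lines 41 and 72, but KO line 33 lay above WT lines 36 and 47, and the log2 fold change was -0.47 ± 0.32 (SE, edgeR adjusted p = 0.551). It moved to -0.11 without WT line 78, to -0.26 without KO line 72 and to -0.72 without KO line 33.

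Has2, which makes hyaluronan from UDP-glucuronic acid and UDP-N-acetylglucosamine, was the 1 gene of the 10 whose genotypes did not overlap, beside 22.0% of all genes tested, 9.59% with KO higher and 12.4% with KO lower. Has2 (chr15:56665627-56694539, minus strand) was at 22.4, 20.8 and 21.0 CPM in WT and at 36.04, 23.9 and 61.7 CPM in KO, from 1692, 1676, 2078, 3210.0, 1614 and 4756 counts. The WT lines were nearly equal, whereas KO line 72 was 2.58-fold above KO line 41, which lay just over the WT range.

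The log2 fold change of Has2 was 0.92 ± 0.33 (SE), a 1.89-fold higher level, with an unadjusted p of 0.0287 and an adjusted p of 0.286 in edgeR. The exact permutation test gave p = 0.1, two-sided, the smallest that 3 lines against 3 allow. Without KO line 72 the log2 fold change was 0.50 ± 0.17 (SE), below the 1.5-fold threshold, with an unadjusted p of 0.0303 in edgeR. Leaving out WT line 36, 47 or 78 left it at 0.96, 0.90 and 0.91, with unadjusted p-values of 0.0631, 0.0720 and 0.0723 in edgeR. The difference was 1.18 within lane 6 and 0.18 within lane 7 on the log2 scale, and the fit with lane in the model gave 0.77, at an unadjusted p of 0.118 in edgeR. The antisense gene Has2os overlaps an exon of Has2, and reads of the pair cannot be told apart without strand. It held 22 to 65 counts per library, with a log2 fold change of 0.93 ± 0.35 (SE, edgeR adjusted p = 0.306).

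CD44, which binds hyaluronan on fibroblasts and on leukocytes, varied by at most 1.41-fold over the 6 lines. Cd44 (chr2:102811141-102901665, minus strand) was at 686, 714 and 577 CPM in WT and at 505, 660.2 and 634 CPM in KO. The genotypes overlapped, and the log2 fold change was -0.14 ± 0.14 (SE, edgeR adjusted p = 0.691). Against WT line 78 alone it was 0.07. Macrophages also express Cd44, and the macrophage and blood markers were lower in KO, as given above; their part in this value was not tested.

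**Figure D2:**
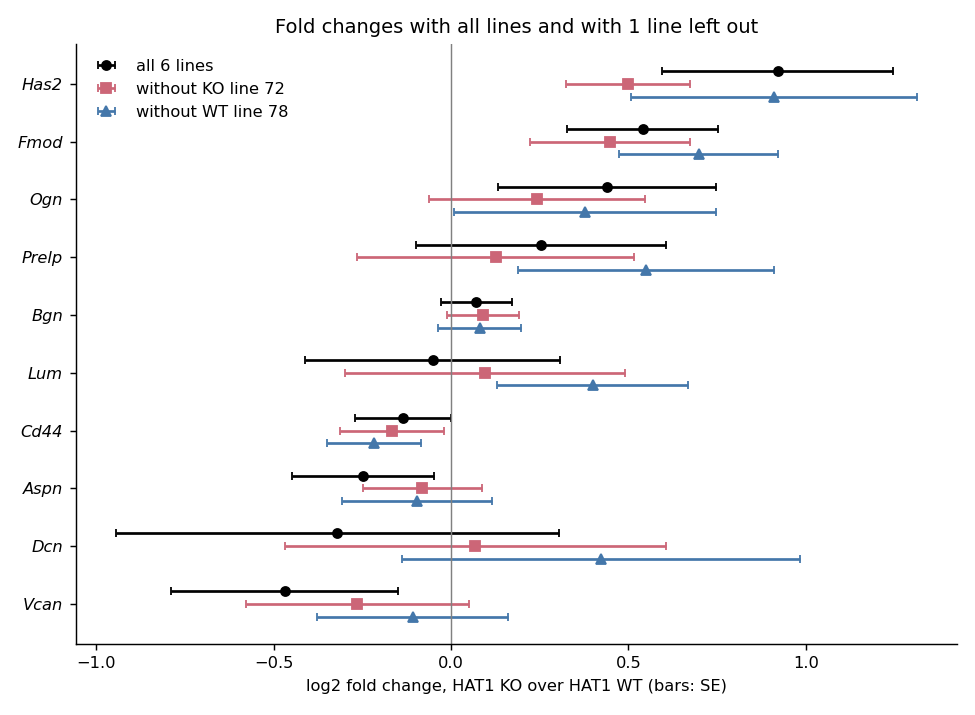
Log2 fold change of each of the 10 genes, HAT1 KO over HAT1 WT (horizontal axis), with whiskers of 1 SE from edgeR, for all 6 lines (black), without KO line 72 (red) and without WT line 78 (blue). Over all lines Has2 is highest at 0.92 and Vcan lowest at -0.47; Has2 drops to 0.50 without KO line 72, and Dcn turns to 0.42 without WT line 78.

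The spread between lines of 1 genotype was wide for most of these genes. The SD of log2 CPM within genotypes had a median of 0.481 over the 10 genes. It was 0.117 over the 6765 genes with a mean over all lines of at least 21.4 CPM, the WT mean of Has2. Of the 10 genes, 9 lay above that median. The exception was Bgn at 0.095, and Dcn had the highest value, 0.975. WT line 78 held the highest level of 4 genes, Dcn, Aspn, Lum and Vcan. KO line 72 held the highest level of 4 others, Fmod, Prelp, Ogn and Has2, and the lowest of 3, Dcn, Aspn and Vcan. WT line 47 held the lowest level of 4 genes, Bgn, Fmod, Prelp and Has2.

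**Figure D3:**
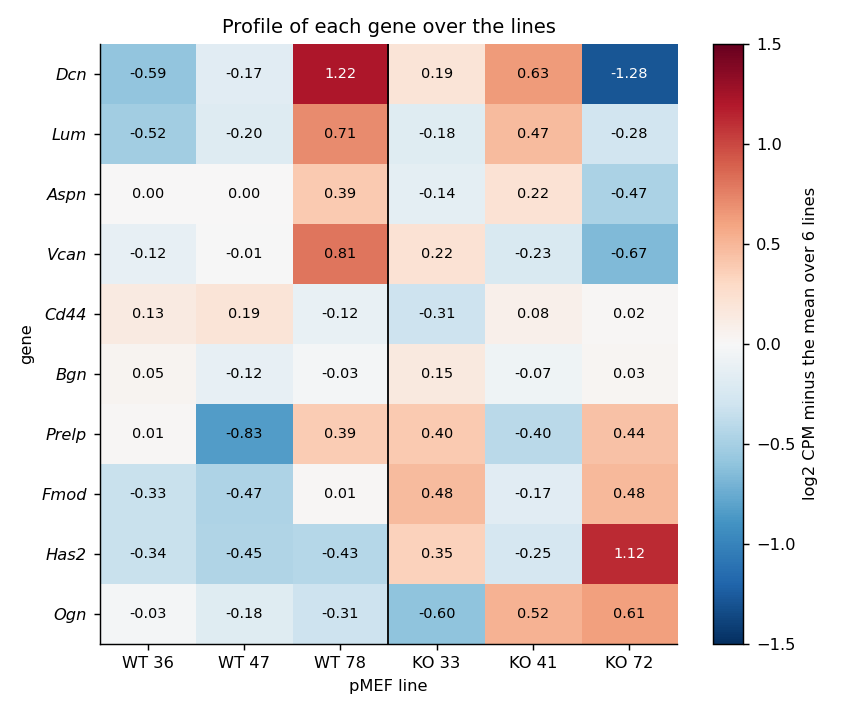
Profile of each of the 10 genes over the 6 lines, as log2 CPM minus the gene's own mean. Dcn, Aspn and Vcan are highest in WT line 78 and lowest in KO line 72, while Fmod, Prelp, Ogn and Has2 are highest in KO line 72.

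Genes of the same cluster on a chromosome did not share a profile throughout. Dcn and Lum lie 46.98 kilobases apart on chromosome 10 and were both highest in WT line 78, with a per-kilobase ratio of Dcn to Lum of 1.02 to 1.52 in 5 lines and 0.534 in KO line 72. Keratocan (Kera), the next gene along, was low, at 1.15, 1.04 and 5.02 CPM in WT and 0.404, 1.45 and 0.182 CPM in KO (edgeR adjusted p = 0.440), and WT line 78 was again highest. Aspn and Ogn, members of 1 cluster with Ecm2 and Omd on chromosome 13, diverged. The ratio of Ogn to Aspn per kilobase was 0.232 in WT line 78 and 0.8004 in KO line 72. Omd lies between them, 14.9 kilobases from Aspn and 15.2 kilobases from Ogn. It was low, at 2.94, 2.58 and 2.10 CPM in WT and 1.28, 3.61 and 12.2 CPM in KO (edgeR adjusted p = 0.527). The levels of Omd ranked the lines in the same order as those of Ogn. Prelp and Fmod lie 115.8 kilobases apart, and the ratio of Fmod to Prelp stayed between 1.87 and 3.12.

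For the 3 genes with the largest spread over the 6 lines, the most similar profiles among all genes tested were sought, as a description without a test. Likeness was the root mean square difference of centred log2 CPM over the 6 lines, which share their libraries. For Dcn, the nearest were Ryr3, a calcium release channel, at 0.146 and Vegfd, a lymphatic growth factor, at 0.186, where the median over all genes was 0.840. Vegfd was at 44.1, 51.7 and 113 CPM in WT and 50.7, 86.5 and 23.1 CPM in KO. For Has2, the nearest were Gm13889 at 0.176 and the mitochondrial malic enzyme Me3 at 0.177, with a median of 0.600, but both were low, at 0.0910 to 0.376 and 1.31 to 3.46 CPM. For Prelp, the nearest were Fam129c at 0.0965 and Ccdc27 at 0.124, with a median of 0.513. These were at only 0.335 to 0.778 and 0.0745 to 0.212 CPM, and Ryr3 at 1.69 to 7.92 CPM, so their profiles rest on far fewer counts than that of Vegfd.

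The wider pathway was described with 7 lists of other genes, of which 83 were tested. At an unadjusted p under 0.05, 6 were lower and 1 higher in KO, where 8.77% and 5.88% of all genes were called, and each of the 7 also passed 1.5-fold. One, Xylt1, passed the adjusted threshold, and the median log2 fold change of the 83 was 0.094.

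The chain-building list held 3 of the called genes among 21 tested, all lower in KO. Over all genes tested, 8.77% were called lower and 14.6% in either direction at an unadjusted p under 0.05 in edgeR. Of the 21, 8 had a negative and 13 a positive log2 fold change, with a median of 0.050. XYLT1 and XYLT2 attach the xylose that starts each chondroitin, dermatan or heparan sulfate chain on a core protein. Xylt1 was at 16.8, 17.8 and 16.3 CPM in WT and at 10.5, 10.7 and 10.1 CPM in KO, with every KO line well below every WT line. It fell by 0.71 ± 0.083 (SE) on the log2 scale, a KO level 0.613 of WT, with an edgeR adjusted p of 0.0357. The adjusted p was 0.0563 to 0.230 in edgeR when any 1 line was left out and 0.566 with lane in the model, while the log2 fold change stayed between -0.73 and -0.64 and the unadjusted p under 0.05 in all 15 alternatives.

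Xylt2 was at 69.4, 76.7 and 84.5 CPM in WT and at 40.9, 47.8 and 58.6 CPM in KO. The genotypes did not overlap, and the log2 fold change was -0.65 ± 0.15 (SE), at an unadjusted p of 0.00398 and an adjusted p of 0.139 in edgeR. Within lanes 6 and 7 the differences were -0.79 and -0.61 for Xylt1 and -0.65 and -0.82 for Xylt2 on the log2 scale.

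Dsel, like its relative Dse, encodes an epimerase that turns chondroitin into dermatan sulfate. Dsel was at 55.1, 48.8 and 56.8 CPM in WT and at 16.0, 41.6 and 28.7 CPM in KO. Its KO lines were uneven but all below WT (log2 fold change -0.90 ± 0.32 SE, unadjusted p = 0.0305 and adjusted p = 0.293 in edgeR). The unadjusted p of Dsel rose above 0.05 in 6 of 15 alternatives, reaching 0.0570 with lane in the model, 0.141 against WT line 78 alone and 0.0526 to 0.0780 without KO line 72 or any 1 WT line, all in edgeR. Dse was level, at 142 ± 3.82 CPM in WT and 141 ± 20.6 in KO (SD, n = 3, edgeR adjusted p = 0.969). Chpf, a chondroitin polymerizing factor, was at 178 ± 24.6 and 211 ± 63.7 CPM (edgeR adjusted p = 0.647).

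The precursor list covers UDP sugars, their transporter and the sulfate donor PAPS. All 12 genes had a positive log2 fold change, as did 7608 of the 14773 genes tested. The median of the 12 was 0.13 and the smallest value 0.017. Of the 12, 1 was called, beside 5.88% of all genes called higher at an unadjusted p under 0.05 in edgeR. Papss2, a PAPS synthase, was at 36.8, 33.2 and 30.2 CPM in WT and at 41.04, 40.8 and 79.4 CPM in KO, with KO line 72 far above the other lines. The log2 fold change was 0.69 ± 0.28 (SE), at an unadjusted p of 0.0460 and an adjusted p of 0.332 in edgeR, and it was 0.31 without KO line 72. The call was lost with lane in the model (0.68, unadjusted p = 0.119 in edgeR), against WT line 78 alone (0.85, unadjusted p = 0.161 in edgeR), with voom (0.39, unadjusted p = 0.0724 in limma) and without any 1 WT line (unadjusted p = 0.0708 to 0.117 in edgeR). Ugp2, which makes UDP-glucose, and the PAPS transporter Slc35b2 were at 65.1 ± 6.63 and 65.5 ± 6.19 CPM in WT and at 80.9 ± 23.4 and 71.97 ± 4.46 CPM in KO (SD, n = 3), with edgeR adjusted p-values of 0.529 and 0.537.

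In the list for hyaluronan synthesis, turnover and binding, 1 of 16 genes tested was called, beside 14.6% of all genes at an unadjusted p under 0.05 in edgeR. Stab1, a scavenger receptor that clears hyaluronan and is made by macrophages and sinusoidal endothelium, was at 572, 620.5 and 555 CPM in WT and at 342, 318 and 209.9 CPM in KO. No KO line reached the WT range, and the log2 fold change was -1.01 ± 0.19 (SE), at an unadjusted p of 0.00144 and an adjusted p of 0.0949 in edgeR. Cemip, which breaks hyaluronan down, was, like Dcn, highest in WT line 78 and lowest in KO line 72, at 816, 749.9 and 1594 CPM in WT and at 689.9, 863 and 347 CPM in KO, and its genotypes overlapped (edgeR adjusted p = 0.478).

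Among other core proteins with chondroitin or mixed chains, 2 of 9 were called, beside 14.6% of all genes at an unadjusted p under 0.05 in edgeR. Serglycin (Srgn), the granule proteoglycan of blood cells, was at 13.7, 12.1 and 12.4 CPM in WT and at 8.67, 8.21 and 7.86 CPM in KO (log2 fold change -0.62 ± 0.099 SE, unadjusted p = 0.000607 and adjusted p = 0.0669 in edgeR). Testican-1 (Spock1) was near the detection limit, at 0.371, 0.720 and 0.505 CPM in WT and 0.202, 0.118 and 0.0259 CPM in KO (log2 fold change -2.18 ± 0.67 SE, unadjusted p = 0.0164 and adjusted p = 0.232 in edgeR), and its unadjusted p was 0.0587 without WT line 47 and 0.118 against WT line 78 alone in edgeR. Stab1 and Srgn were lower in the same lines as the 12 macrophage and blood markers, whose summed ranges of 2674 to 3076 CPM in WT and 1412 to 1793 CPM in KO did not overlap either, and whose part in these results was not tested. None of those 12 markers was under 0.1 CPM in every line. Cspg4 and Tgfbr3, the most abundant of the list per kilobase, had edgeR adjusted p-values of 0.575 and 0.616.

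**Figure D4:**
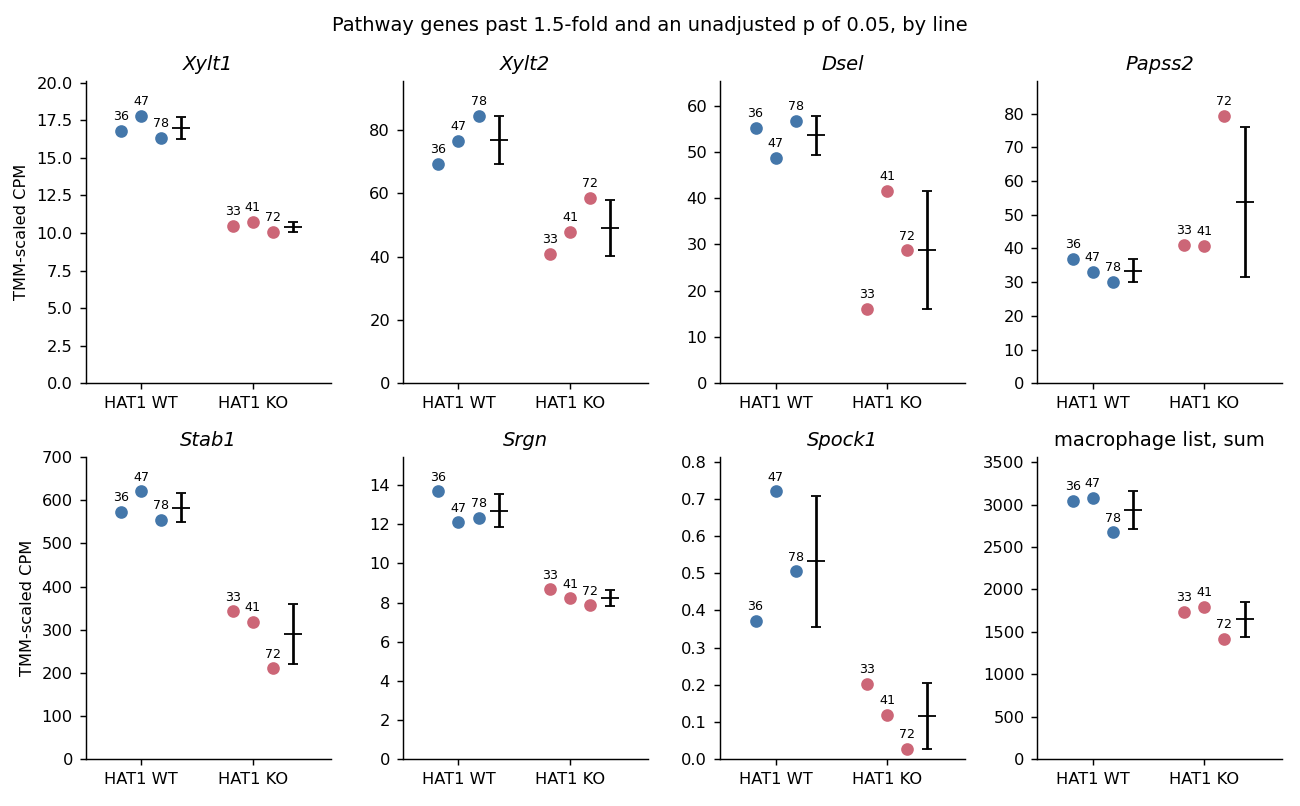
Level in TMM-scaled CPM (vertical axes from 0) of the 7 called pathway genes and the sum of the 12 macrophage and blood markers in each line, with points numbered by line and the bar and whiskers for mean and SD. Xylt1 lies at 16.3 to 17.8 CPM in WT and 10.1 to 10.7 CPM in KO, and the macrophage sum at 2674 to 3076 and 1412 to 1793 CPM.

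Of the other small leucine-rich repeat proteins (9 tested), none was called at an unadjusted p under 0.05 in edgeR. Nor was any of the other hyaluronan-binding proteoglycans and link proteins (4 tested) or heparan sulfate proteoglycan core proteins (12 tested). Among all genes tested, 14.6% were called in either direction at that threshold. Podocan (Podn) and tsukushi (Tsku), the first list's most abundant genes per kilobase, were at 76.2 ± 20.4 and 43.1 ± 2.29 CPM in WT and at 56.6 ± 25.2 and 46.0 ± 8.09 CPM in KO (SD, n = 3), and chondroadherin (Chad) was at 0.135 ± 0.025 and 0.229 ± 0.073 CPM. Aggrecan (Acan), a cartilage proteoglycan, ranged from 1.96 to 23.7 CPM in WT and from 0.259 to 25.8 CPM in KO, and the link protein Hapln4 had an edgeR adjusted p of 0.726. The link protein Hapln1 was at 3.54 CPM in KO line 72 and between 0.148 and 0.382 CPM in the other 5 lines. Perlecan (Hspg2) was at 2776 ± 93.4 CPM in WT and 2666 ± 411 in KO, glypican Gpc4 at 422 ± 32.0 and 444 ± 94.0, and syndecan Sdc1 at 210.5 ± 30.4 and 277 ± 124 (SD, n = 3), with edgeR adjusted p-values of 0.876, 0.866 and 0.599. Gpc2 was under 0.5 CPM in every line, with an edgeR adjusted p of 0.566.

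**Figure D5:**
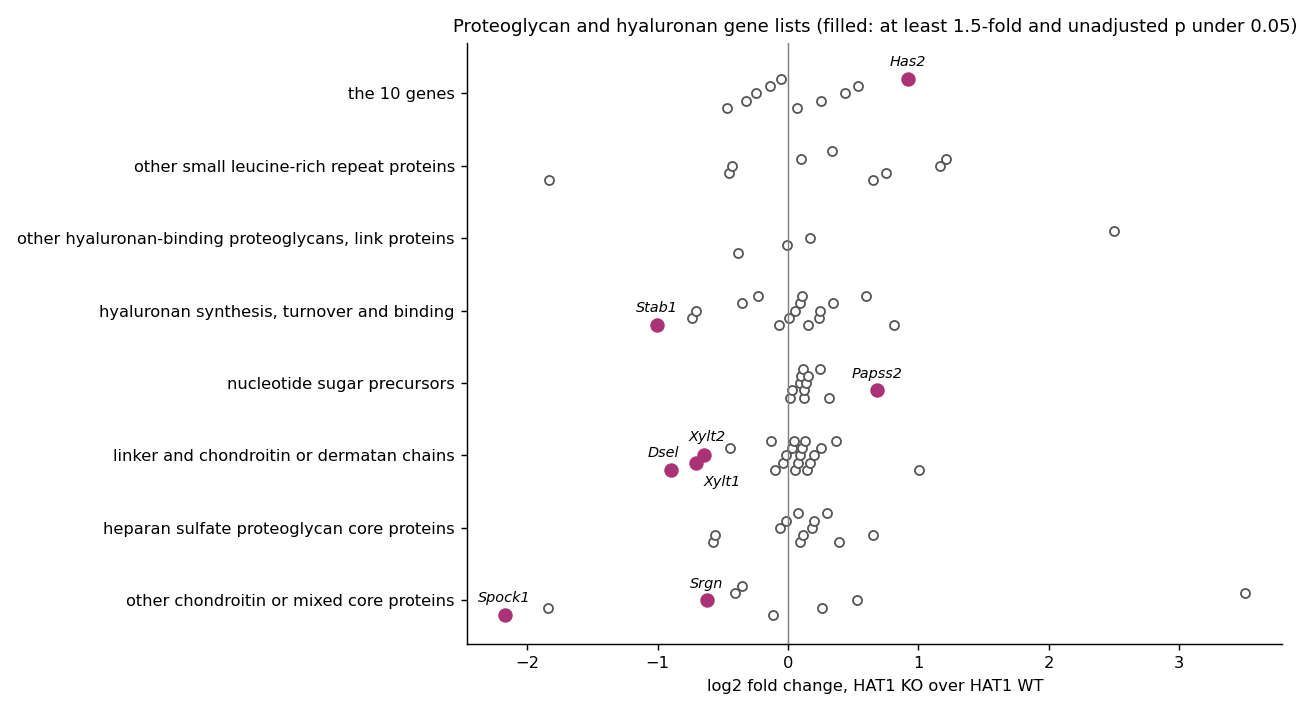
Log2 fold change, HAT1 KO over HAT1 WT (horizontal axis), of every tested gene of the 10 and of the 7 pathway lists, 1 row of points per list. Filled points passed 1.5-fold and an unadjusted p under 0.05, namely Has2 (0.92) and Papss2 (0.69) to the right and Xylt1, Xylt2, Dsel, Stab1, Srgn and Spock1 (-0.62 to -2.18) to the left.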

How the data were processed

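RNA of 6 pMEF lines was sequenced after TruSeq v2 library preparation, a kit that does not mark strand. The authors deposited raw counts per gene, with no normalization. Per the labels' processing notes, edgeR and the mm10 build were used; the aligner, the counter and its use of strand are not given in the sources used here. The deposited table also holds the authors' comparison (log2 fold change, log2 CPM, F, p and q), which was not used. All 17512 genes matched GENCODE M21 by identifier, 24 symbols turned into dates were restored, no column of sample values was left without a sample, and no pair of libraries was identical. Of counts from 1 to 10, 75.1% were even, against 55.0% of counts from 101 to 1000, so read pairs may have entered low counts as 2 reads.

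The counts were filtered with filterByExpr, scaled by TMM and tested two-sided with the quasi-likelihood test of edgeR 4.0.16 in R 4.3.3, genotype alone, with Benjamini-Hochberg adjustment over 14773 genes. Groups followed the genotype labels. SE, an approximation, is the size of the log2 fold change over the root of its F statistic. Lane values are differences of mean log2 CPM. Exon lengths, over all annotated exons of a gene merged, and positions are from GENCODE M21 on GRCm38. The test was tried on counts simulated with known changes. Of the calls at an adjusted p under 0.05 there, 6.52% were false in edgeR, 21.6% in DESeq2 and 7.8% in voom. Alternatives were DESeq2 1.42.0, voom in limma 3.58.1, other scalings and filters, lane, WT line 78 alone, and leaving out each line; halved counts were added after seeing the data.

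The 10 genes and all lists were chosen with earlier results of these data known. Of the pathway lists, genes past 1.5-fold and an unadjusted p of 0.05 were named, otherwise the 2 with the smallest p, and the 2 with the highest WT level per kilobase. Hapln2, Habp2, Itih1 and Gpc5 were not analysed here. At an unadjusted p under 0.05 in edgeR, 8.77% of all genes tested were lower and 5.88% higher in KO. Check lists not described beside the results gave, at an unadjusted p under 0.05, 2 of 4 endothelial genes lower (sum 11.4 to 12.6 CPM in WT, 8.92 to 12.4 in KO), 1 of 7 cartilage genes lower and 1 higher (19.4 to 153 and 22.5 to 66.9 CPM), none of 4 bone and tendon genes (52.4 to 69.2 and 56.9 to 88.1 CPM), none of 2 muscle genes (4.72 to 28.1 and 4.85 to 27.1 CPM), none of 2 epithelial genes (1.76 to 2.49 and 1.10 to 2.07 CPM) and 1 of 8 fibroblast genes, Thy1, lower.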

Additional observations from a re-analysis of the deposited data

How the results depend on the processing

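No paired analysis was possible because the genotypes share no replicate numbers. Of 150 values of the 10 genes under alternatives, 127 kept their direction and side of the unadjusted threshold, 12 lost the call, 1 gained it and 10 reversed. The cause of these changes was not tested.

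The 78 genes past the adjusted p became 871 with the Wald test of DESeq2, 267 with voom, 46 with no filter on low counts, 2 with lane in the model and 0 in edgeR with the KO lines against WT line 78 alone, where 1126 genes had an unadjusted p under 0.05. They ranged from 0 to 73 when 1 line was left out; the count was 0 without KO line 33 and without WT line 36 or 47 (1859, 1439 and 1666 genes at an unadjusted p under 0.05 in edgeR), 4 without WT line 78 and 6 without KO line 41. The 903 genes past 1.5-fold and an unadjusted p became 529 with lane and 688 to 1090 with 1 line left out.

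Of the 10 genes, the 1 past both thresholds, Has2, became 0 with lane (931 of all genes at an unadjusted p under 0.05 in edgeR), with voom (2610 of all genes) and against WT line 78 alone, and 0 to 2 with 1 line left out. The count was 0 without KO line 72 and without WT line 36 or 47, where 1005, 688 and 809 of all genes passed both thresholds. It was 2 without KO line 33 (with Ogn) or KO line 41 (with Fmod), beside 982 and 1090 of all genes. Without WT line 78 it was Fmod alone, beside 776 of all genes. Fmod also lost its unadjusted call with lane and against WT line 78 alone, as did Dsel and Papss2 among the pathway genes. The 7 pathway genes at an unadjusted p became 11 with the Wald test of DESeq2 and 5 to 14 with 1 line left out. In the same settings the 2164 of all genes under that threshold became 2442 and 1439 to 2786.

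With 1 line left out, the log2 fold changes of genes that reversed ranged from -0.73 to 0.42 for Dcn, from -0.32 to 0.40 for Lum and from -0.01 to 0.55 for Prelp. Reversed log2 fold changes were those of Dcn (0.38 with voom, 0.42 without WT line 78, 0.07 without KO line 72), Lum (0.33 with voom, and 0.40, 0.10 and 0.05 without WT line 78, KO line 72 and KO line 33), Prelp (-0.18 against WT line 78 alone, -0.012 without WT line 47) and Cd44 (0.071 against WT line 78 alone). Counts of the 10 genes were all at least 1614, with a counting error of at most 2.49% if every count is a separate read.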
